A study of Mus musculus with 6 samples.

Results

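The cerebellins and the C1q-like proteins are small secreted proteins that organize synapses, and 7 of their genes were followed here: Cbln1, Cbln2, Cbln3, Cbln4, C1ql1, C1ql2 and C1ql3. Each gene was represented by the array row whose annotation named only that gene, taking the row with the highest mean over the 6 arrays. The family was selected on a measured value, since C1ql1 had been noted for a higher value after ethanol. Its difference is therefore given as a description, with no test. Of the 7 genes, 6 had such a row (4 cerebellins and 2 C1q-like genes), 1 row each, out of 22180 genes with a row of their own. The row for C1ql3 also names Pter, so no value is given for C1ql3.

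The ethanol group was made of male C57BL/6J mice, an inbred laboratory strain, given ethanol at 2.5 g/kg in 0.15 M NaCl under the skin. The saline group was made of male C57BL/6J mice given saline by the same route. Pups of both groups were injected on postnatal days 4 and 7, with 2 doses a day given 2 hours apart. Each group had 3 arrays, with the RNA of 3 mice pooled per array and 18 mice in all. The tissue is labelled as hippocampus. The sample characteristics give an age of 21 days and the treatment protocol gives 70 days, and which age applies was not settled here. A pool averages over its animals, so a p-value here sets a difference against the spread between pools, not between animals.

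Proteins of this family carry a C1q domain, the fold first known from complement, and they join a presynaptic to a postsynaptic receptor across the cleft. In mouse cerebellum, Cbln1 from granule cells organizes the synapses of parallel fibres onto Purkinje cells. C1ql proteins bind the adhesion receptor Adgrb3. In mouse hippocampus, C1ql2 and C1ql3 are made by dentate granule cells and act at mossy fibre synapses onto CA3 neurons, where kainate receptors are also bound.

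All values below are log2 expression as deposited, and since binding strength varies from probe to probe, a higher value for one gene than for another does not show more transcript. The arrays correlated with each other at 0.987 to 0.992 across rows. Saline array 1 stood apart from its group. The ethanol arrays had scores of -19.1 to -1.59 on the first principal component, whereas saline array 1 had -19.9 and the other saline arrays had 23.7 and 32.6. The differences of the family genes are therefore also given without it. Among markers of the labelled tissue, the dentate granule cell genes Prox1 and Dsp averaged 8.18 and 6.43, and the telencephalic transcription factors Neurod6, Emx1 and Emx2 averaged 6.76, 6.39 and 5.28, where the median row stood at 6.60. The same lists held brighter genes: the 12 dentate genes ranged from 5.63 to 12.28 and the 9 telencephalic genes from 5.28 to 10.95. The top dentate value was that of Calb1, which is also on the Purkinje cell list. No other dentate gene was above Prox1. The top telencephalic value was that of Slc17a7, which is also on the cerebellar granule cell list. Neurod2 at 10.58 and Camk2a at 9.76 came next. Gabra6, the GABA-A receptor subunit typical of granule cells in the cerebellum, averaged 12.17, and Car8, a Purkinje cell gene, averaged 12.44. Which tissue or cells gave these levels was not tested, and in bulk RNA fewer cells of a type and less RNA per cell cannot be told apart.

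The family as a whole showed small differences between ethanol and saline. Of the 6 measured genes, 4 had higher means in ethanol (Cbln1, Cbln3, C1ql1 and C1ql2) and 2 had lower means (Cbln2 and Cbln4). The median difference over the 6 genes was 0.04, beside 0.02 over all 22180 genes, of which 57.2% were higher in ethanol. None of the 5 genes other than C1ql1 passed limma's moderated test at an adjusted p under 0.05 (Benjamini-Hochberg over all rows), nor did any of the 41345 rows (0%). At an unadjusted p under 0.05 there were 0 of these 5 genes, beside 5.54% of all rows. Ethanol and saline arrays were fully apart, with no overlap, for 2 of the 6 genes, both higher in ethanol, beside 5.06% of all rows. No family gene had groups that did not overlap with ethanol lower, beside 6.01% of all rows. The split of all such rows depended on the scaling: as deposited 2090 were higher and 2485 lower in ethanol, whereas 3293 were higher and 1565 lower with arrays centred on their medians, and 2203 and 1960 under quantile normalization. The rule that assembled the family used this contrast, so nothing is read from the counts that include C1ql1.

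**Figure D1:**
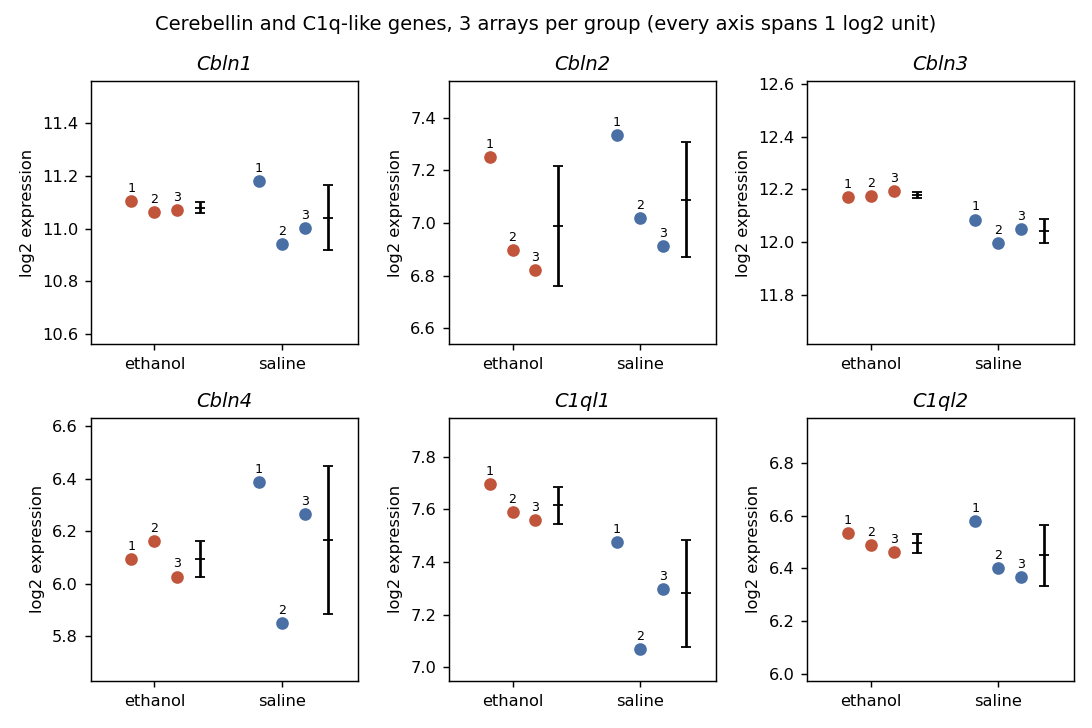
Log2 expression (vertical axes, each spanning 1 log2 unit) of the 6 measured genes on the 3 ethanol arrays (left of each panel) and the 3 saline arrays (right), with the array number above each point. Black bars give the mean and SD of each group; the groups are apart for Cbln3 and C1ql1 and overlap for the other genes.

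C1ql1 encodes a ligand of Adgrb3 that, in mice, inferior olive neurons release at climbing fibre synapses onto Purkinje cells, and that oligodendrocyte precursors also express. It stood at 7.70, 7.59 and 7.56 on ethanol arrays 1 to 3, against 7.48, 7.07 and 7.30 on saline arrays 1 to 3. Every ethanol array was above every saline array, but the gap between the lowest ethanol and the highest saline value was only 0.0843. Its means were 7.62 ± 0.07 in ethanol and 7.28 ± 0.20 in saline (SD, n = 3 each). The difference was 0.33 ± 0.12 on the log2 scale (SE of the limma fit), or 1.26-fold, and it is the difference for which the gene was noted. The difference was 0.23 without saline array 2, the lowest of the arrays, and 0.43 without saline array 1. With both arrays numbered 2 left out it was 0.24.

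C1ql1 had a within-group SD of 0.152, against a median of 0.109 over rows of like brightness, that is the same one of 10 equal brightness classes. The median difference of those rows was -0.01. Of 10 marker genes of oligodendrocyte precursors, 5 were higher and 5 lower in ethanol, with a median difference of 0.00. Their list medians overlapped, at 8.48 to 8.67 on the ethanol arrays and 8.49 to 8.65 on the saline arrays. The precursor receptor Pdgfra differed by -0.04 ± 0.09 (SE). The groups did not overlap for 2 of the 10, both higher in ethanol, beside 5.06% of all rows. They were named after their values were seen: Vcan, a proteoglycan, differed by 0.25 ± 0.08 and the phosphatase Ptprz1 by 0.14 ± 0.07. Ptprz1 is in the brightest of the 10 classes, whose rows had a median difference of 0.08. The part of Vcan and Ptprz1 in the C1ql1 difference was not tested. C1ql1 lies on chromosome 11 of mouse build GRCm38, from 102939264 to 102946716.

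C1ql2, the dentate granule cell member, stood at 6.53, 6.49 and 6.46 on ethanol arrays 1 to 3, against 6.58, 6.40 and 6.37 on saline arrays 1 to 3. Saline array 1 was the highest of all, and the groups overlapped. The difference was 0.04 ± 0.09 (SE), with an interval of -0.16 to 0.25 (95%, limma) and an adjusted p of 0.941 in limma. It was 0.11 without saline array 1, 0.02 without saline array 2 and 0.0038 without saline array 3. Dentate granule cell markers had 4 genes higher and 8 lower out of 12, with a median difference of -0.02. C1ql2 lies on chromosome 1 from 120340582 to 120343174.

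C1ql4, the remaining C1q-like gene, is not one of the 7 but is the nearest relative on the array. It stood at 5.73, 5.73 and 5.81 on ethanol arrays 1 to 3, against 5.65, 5.44 and 5.66 on saline arrays 1 to 3. The groups did not overlap, and the difference of 0.17 ± 0.09 (SE) did not pass the test (limma adjusted p = 0.857). The overall mean of C1ql4, 5.67, was below the median row.

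Cbln3 is made by cerebellar granule cells in mice and is secreted only together with Cbln1. It stood at 12.17, 12.18 and 12.19 on ethanol arrays 1 to 3, against 12.09, 11.99 and 12.05 on saline arrays 1 to 3. The 3 ethanol arrays lay close together and all above the saline arrays. The difference was 0.14 ± 0.07 (SE), or 1.10-fold, with a 95% interval of -0.03 to 0.30 and an adjusted p of 0.857 in limma, so it did not pass the test. Without saline array 1 the difference was 0.16.

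Bright rows as a class also had higher values in ethanol. The median difference was 0.08 over the rows in the brightest of the 10 classes, which holds both Cbln3 and Cbln1. Relative to the mean over arrays, those rows lay at a median of 0.08 on ethanol array 2 and -0.10 on saline array 2. Under quantile normalization, which gives all arrays one distribution, the Cbln3 difference was 0.07, and after cyclic loess, which removes a trend with brightness, it was 0.05. Of 14 cerebellar granule cell markers, 12 had higher means in ethanol, beside 57.2% of all genes. Their median difference was 0.09, and 0 passed the test. The list median lay between 10.47 and 10.77 on the ethanol arrays and between 10.34 and 10.55 on the saline arrays. Gabra6 differed by 0.08 ± 0.09 (SE). Markers of astrocytes and Bergmann glia were higher in ethanol for 10 of 10 genes, with a median difference of 0.11, and 0 passed the test. Saline array 2, the lowest array for Cbln3 and C1ql1, was also the lowest for 8 of these 10, beside 22.7% of all rows. Most genes of the granule cell and glial lists are in the brightest class. The part of brightness and of cell content in the Cbln3 and C1ql1 differences was not tested. Cbln3 lies on chromosome 14 from 55878920 to 55884256.

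Cbln1, the organizer of the parallel fibre synapse, stood at 11.10, 11.06 and 11.07 on ethanol arrays 1 to 3, against 11.18, 10.94 and 11.00 on saline arrays 1 to 3. The saline arrays enclosed the ethanol arrays on both sides. The difference was 0.04 ± 0.09 (SE), with a 95% interval of -0.17 to 0.24 and an adjusted p of 0.949 in limma. It was 0.11 without saline array 1 and -0.01 without saline array 2, so its sign rested on which saline array was used. Under quantile normalization it was -0.03. Cbln1 lies on chromosome 8 from 87468853 to 87472592. Its difference was not tested against that of Cbln3, the partner it is secreted with.

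Cbln2, which binds neurexins and delta receptors at forebrain synapses, stood at 7.25, 6.90 and 6.82 on ethanol arrays 1 to 3, against 7.33, 7.02 and 6.91 on saline arrays 1 to 3. One array of each group, numbered 1, was high and the others were low, so the spread within groups was wider than the gap between them. The difference was -0.10 ± 0.15 (SE), with a 95% interval of -0.46 to 0.27 and an adjusted p of 0.927 in limma. Without saline array 1 it was 0.02. Its within-group SD of 0.224 compares with a median of 0.115 over rows of its brightness. Cbln2 lies on chromosome 18 from 86711061 to 86718283.

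Cbln4, which binds neurexins and the netrin receptors Dcc and Neo1, stood at 6.09, 6.16 and 6.03 on ethanol arrays 1 to 3, against 6.39, 5.85 and 6.26 on saline arrays 1 to 3. The saline arrays again lay on both sides of the ethanol arrays. The difference was -0.07 ± 0.14 (SE), with a 95% interval of -0.41 to 0.27 and an adjusted p of 0.943 in limma. It was 0.04 without saline array 1 and -0.23 without saline array 2. Cbln4 lies on chromosome 2 from 172036336 to 172043466.

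Saline arrays 1 and 2 lay at the ends of the range for most of the family. Saline array 1 was the highest of the 6 arrays for 4 of the 6 genes (Cbln1, Cbln2, Cbln4 and C1ql2), beside 18.9% of all rows. Saline array 2 was the lowest for 4 of the 6 (Cbln1, Cbln3, Cbln4 and C1ql1), beside 22.7% of all rows. The SD was wider in saline than in ethanol for 5 of the 6 genes, Cbln2 being the exception, beside 60.4% of all rows. For example, Cbln4 had an SD of 0.07 in ethanol and 0.28 in saline, and Cbln1 an SD of 0.02 in ethanol and 0.12 in saline (n = 3 each).

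**Figure D2:**
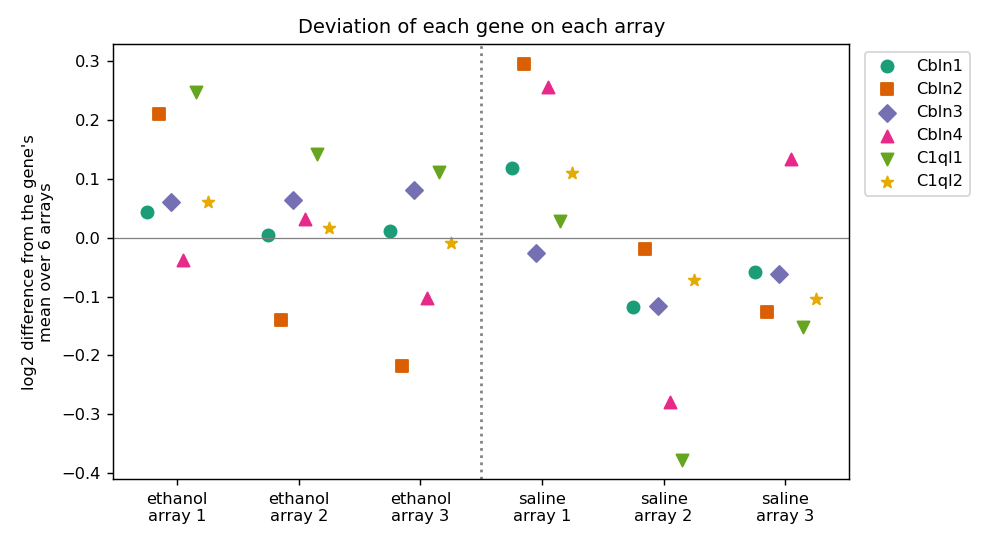
Deviation of each of the 6 genes from its own mean over the 6 arrays (log2, vertical axis), for ethanol arrays 1 to 3 (left) and saline arrays 1 to 3 (right). On saline array 1, Cbln2 and Cbln4 lie at 0.30 and 0.26, and on saline array 2, Cbln4 and C1ql1 lie at -0.28 and -0.38.

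Thalamic markers were also high on saline array 1. Thalamic neurons of mice express several cerebellins, and a list of 8 thalamic genes was added after the high value of Tcf7l2 on that array was known. Saline array 1 was the highest array for 8 of these 8 genes, Tcf7l2 included, beside 18.9% of all rows. The lead was small for some of them: Lef1 stood at 7.28 there and at 7.25 on saline array 2. Tcf7l2, a transcription factor of thalamic neurons, stood at 7.11, 7.12 and 7.00 on ethanol arrays 1 to 3, against 8.47, 7.03 and 7.17 on saline arrays 1 to 3. Slc17a6, a vesicular glutamate transporter, stood at 8.14, 8.29 and 7.98 on ethanol arrays 1 to 3, against 8.66, 7.94 and 8.15 on saline arrays 1 to 3. The list median lay between 7.35 and 7.36 on the ethanol arrays, against 7.97, 7.22 and 7.40 on saline arrays 1 to 3. Its rise on saline array 1 comes in part from a change of rank, as Tcf7l2 passes other genes there. Ntng1, near the middle of the list, stood at 7.70 on saline array 1 and at 7.49, 7.54 and 7.56 on ethanol arrays 1 to 3. Genes of other lists were high there too: the array was the highest for 7 of 12 Purkinje cell genes, 7 of 13 CA3 and CA2 genes and 6 of 9 microglial genes. It was the highest for 3 of 9 telencephalic genes. The telencephalic list median lay between 7.17 and 7.33 on the ethanol arrays, against 8.57, 7.19 and 7.48 on saline arrays 1 to 3. The middle gene was Mef2c on saline array 1 and Nrgn on the other arrays, as Nrgn stood above Mef2c on saline array 1. The higher median there thus follows the high value of Nrgn and takes the value of Mef2c. Mef2c itself stood at 8.35, 8.52 and 8.50 on ethanol arrays 1 to 3, against 8.57, 8.30 and 8.46 on saline arrays 1 to 3. The gene at the middle of that list by mean level was Nrgn, a calmodulin-binding protein of forebrain neurons, at 7.17, 7.31 and 7.33 on ethanol arrays 1 to 3, against 9.11, 7.19 and 7.48 on saline arrays 1 to 3. The part of tissue content in the cerebellin values of saline array 1 was not tested.

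The genes whose patterns over the 6 arrays were most like that of C1ql1 were Orai3, a calcium channel subunit, Lcat, which esterifies cholesterol, and Tmem150c. Likeness was the root mean square difference between centred log2 values, among 13675 genes brighter than the median row. It was 0.051 for Orai3, 0.052 for Lcat and 0.054 for Tmem150c, against 0.208 for C1ql1 around its own mean. Lcat stood at 10.57, 10.61 and 10.52 on ethanol arrays 1 to 3, against 10.49, 10.08 and 10.26 on saline arrays 1 to 3, so it was lowest on the same array as C1ql1.

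The other genes had like patterns elsewhere. Those nearest Cbln4 were Ankrd33b, Foxp2 and Gabra3 (0.034, 0.039 and 0.043, against 0.171 for Cbln4 around its mean). Those nearest Cbln2 were Hoxc10, Nol3 and Naglu (0.063, 0.065 and 0.067, against 0.189). Cbln1 was nearest to Dnm1, Eif6 and Scrt1 (0.015, 0.016 and 0.016, against 0.075). Cbln3 was nearest to Marchf5, Socs3 and Ptprz1 (0.015, 0.015 and 0.018, against 0.073), and C1ql2 to Mier2, Lss and Map3k15 (0.013, 0.015 and 0.018, against 0.073). With so many genes over 6 arrays, close matches are to be found for most patterns, and these are descriptions.

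Within the family, Cbln1 and C1ql2 were the pair with the closest patterns, at a root mean square difference of 0.030. Both were highest on saline array 1 and lay near their means on the ethanol arrays. Cbln2 and C1ql1 were the pair farthest apart, at 0.255. Cbln1 and Cbln3, which are secreted together, were at 0.070.

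The receptors that these proteins bind were followed in 10 genes. Of the 10, 9 were higher and 1 was lower in ethanol, beside 57.2% of all genes higher. Their median difference was 0.06, beside 0.02 over all genes. Many of them are bright: Nrxn2, Nrxn3, Adgrb2, Adgrb3, Grik2 and Neo1 are in the brightest of the 10 classes, whose rows had a median difference of 0.08. Every one had overlapping groups, and 0 passed the test. The lowest adjusted p was 0.870 in limma, for Neo1.

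Presynaptic neurexins, which bind cerebellins, differed by 0.10 ± 0.09 (SE) for Nrxn2 and 0.05 ± 0.08 for Nrxn3. The delta receptor Grid1 was at 8.18, 8.24 and 8.31 on ethanol arrays 1 to 3, against 8.38, 8.01 and 8.07 on saline arrays 1 to 3. Saline array 1 was again the highest and saline array 2 the lowest, and Grid1 differed by 0.09 ± 0.11. The adhesion receptor of C1q-like proteins and its relatives differed by less than their SE: Adgrb3 by 0.02 ± 0.09, Adgrb1 by 0.04 ± 0.09 and Adgrb2 by -0.02 ± 0.07. The kainate receptor subunits Grik2 and Grik4 differed by 0.07 ± 0.10 and 0.05 ± 0.08. The Cbln4 receptors Dcc and Neo1 differed by 0.08 ± 0.07 and 0.09 ± 0.07. Saline array 2 was the lowest array for 7 of the 10 receptor genes. Without it the median difference of the list was 0.02, without saline array 1 it was 0.11, and after cyclic loess it was 0.0046.

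**Figure D3:**
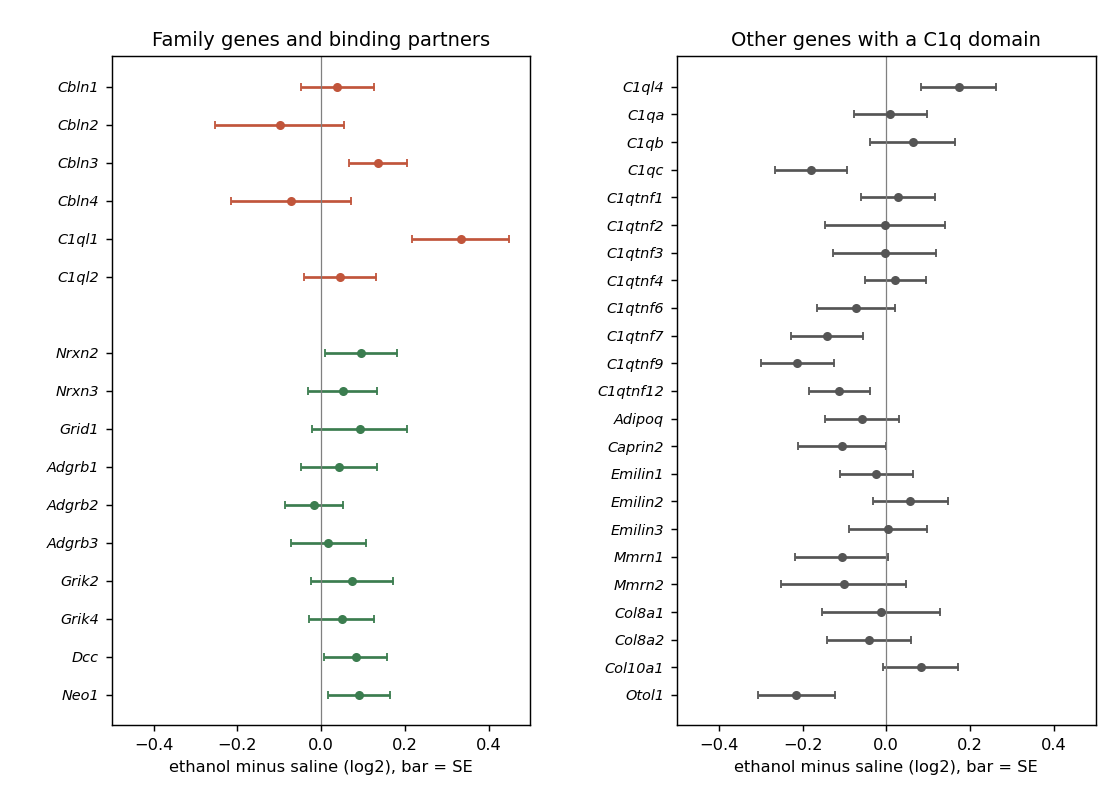
Difference between ethanol and saline (horizontal axes, log2, bars give the SE) for the 6 family genes and 10 binding partners (left panel, top and bottom) and for 23 other genes with a C1q domain (right panel). C1ql1 at 0.33 lies farthest from 0, the partners lie between -0.02 and 0.10, and the relatives lie between -0.22 and 0.17.

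Other genes with a C1q domain went both ways. Of 23 measured, 8 were higher and 15 lower in ethanol, with a median difference of -0.02, and 0 passed the test. The groups did not overlap for 1 higher gene, C1ql4, and for 4 lower ones: C1qc, C1qtnf7, C1qtnf9 and C1qtnf12. C1qtnf7 and C1qtnf9 were named for their small unadjusted limma p-values, and C1qtnf12 after its values were seen. Over all rows the shares were 5.06% higher and 6.01% lower, and they depended on the scaling. The complement chains C1qa, C1qb and C1qc, which microglia assemble into C1q, differed by 0.01 ± 0.09, 0.06 ± 0.10 and -0.18 ± 0.09 (SE). C1qc stood at 6.61, 6.49 and 6.62 on ethanol arrays 1 to 3, against 6.81, 6.81 and 6.64 on saline arrays 1 to 3, so its groups were only 0.0168 apart. Microglial markers had 4 of 9 genes higher and 5 lower, with a median difference of -0.04.

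Of the remaining relatives, the smallest p-values belonged to C1qtnf9, Otol1 and C1qtnf7. C1qtnf9, an adiponectin-related secreted protein, differed by -0.21 ± 0.09 (SE), Otol1, a protein of inner ear otoconia, by -0.22 ± 0.09, and C1qtnf7 by -0.14 ± 0.09, each with an adjusted p of 0.857 in limma. C1qtnf9 had 2 rows naming only it, and the brighter is given. Nrxn2 and Mef2c, given elsewhere, also had 2 such rows, and the brighter was used for each.

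**Figure D4:**
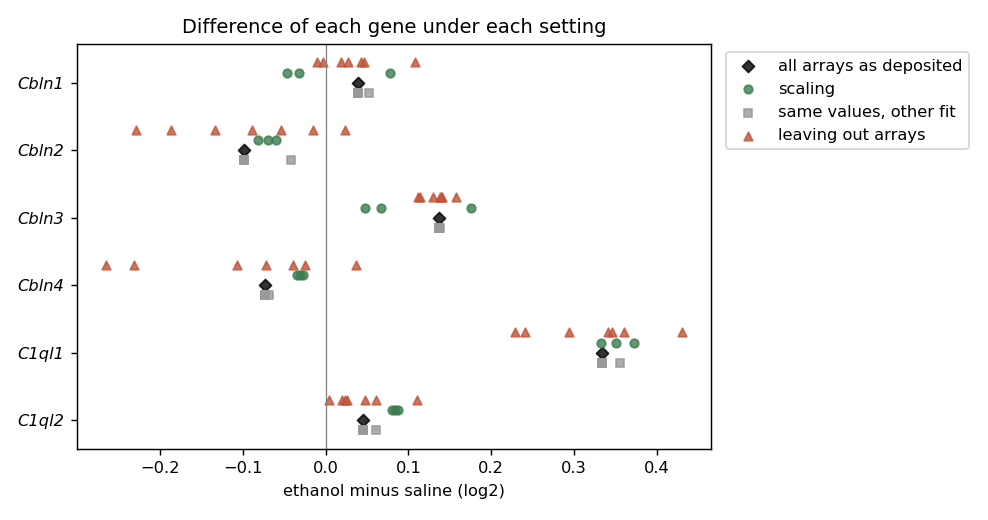
Difference between ethanol and saline (horizontal axis, log2) of each of the 6 genes as deposited (diamonds), under other scalings (circles), under other fits of the same values (squares) and with arrays left out (triangles). C1ql1 ranged from 0.23 to 0.43 and Cbln3 from 0.05 to 0.18, whereas the values of Cbln1, Cbln2 and Cbln4 lay on both sides of 0.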

How the data were processed

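The authors deposited log2 values, 1 column per array and 41345 rows. That they are log2 follows from their range and the like medians of the arrays. Background correction, summarization and normalization are not given in the sources used here. The genome build was mm 10, per the submitters' processing notes. The platform annotation names 1 gene for 23521 rows, several for 1814 and none here for 16010. Rows with several names were assigned to no gene. Gene positions are from the RefSeq table of GRCm38.

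All rows were fitted together in limma 3.58.1 (R 4.3.3; lmFit and eBayes, ethanol minus saline, no covariate, two-sided), with Benjamini-Hochberg adjustment over all rows at 0.05. The prior added 2.94 degrees of freedom to 4 residual ones. The script was tested on simulated data. The number of arrays limits the precision.

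The genes named were the 7 family genes, the binding partners measured, C1ql4, the 3 C1q chains, up to 3 other relatives with the smallest p, 3 genes of like pattern per member, and markers. Family, lists and tests were chosen with earlier results of these data known. Same-numbered arrays deviated together at correlations of 0.10, -0.06 and 0.04 over rows, so the numbers were not taken to pair the arrays. Some listed items are not reported here.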

Additional observations from a re-analysis of the deposited data

How the results depend on the processing

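With limma, 0 rows were called under the scalings, filters, priors, weights and a threshold of 0.1, and 0 to 1 when 1 array was left out; the 1, without saline replicate 3, was none of the family genes. With the array number as a replicate block, 0 rows were called and the C1ql1 difference was 0.33; the block changed no call. C1ql1, C1ql2 and Cbln3 kept their sign under every setting tried. For C1ql1 and Cbln3 only the scalings could have changed it. Their groups do not overlap, so no omission or weighting of arrays can reverse the sign. The block, priors and filters leave a difference as it is. C1ql1 was also noted for this contrast, so nothing is read from its constant sign. Cbln1 changed sign under quantile normalization (-0.032), cyclic loess (-0.047) and without both arrays numbered 2 (-0.003), and ranged from -0.011 to 0.108 leaving out 1 array. Over the same omissions Cbln2 ranged from -0.229 to 0.024 and Cbln4 from -0.231 to 0.037, both above 0 only without saline array 1. The median of the binding partners was 0.015 under quantile normalization, 0.102 with arrays centred on their medians and 0.0046 after cyclic loess, and 0.018 to 0.106 leaving out 1 array; that of the relatives moved by less than its spread between arrays. Rows whose groups did not overlap numbered 4575 on all arrays, 2454 with only rows that name 1 gene and 2192 with only rows brighter than the median, where fewer rows were tested, 12368 without both arrays numbered 2, and 7244 to 11428 leaving out 1 array, where fewer arrays make overlap rarer. The cause of the sign changes was not tested. Cbln4 and C1ql2 were below the brightness filter, and no family gene had a second row to try.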
